A study of Mus musculus with 6 samples.

Results

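Slc4a1, Kel, Rhag, Epb42, Ank1, Sptb, Ermap and Icam4 encode proteins of the red blood cell membrane and of the protein skeleton beneath it. They are 8 of the 19938 genes measured in 6 mouse embryos at embryonic day 14.5, from the neocortex, the layered outer wall of the forebrain. The genes were taken from a list of red cell membrane genes, and each was read from the single probe set that names it alone. The genes were chosen by their role, and the group was selected on the log2 difference between the genotypes, which was known when the list was drawn up. So these differences are given as a description, without a test. The 3 control embryos were Bcl11a+/+ and the 3 mutants were Bcl11aΔflox/Δflox, that is, both copies of the floxed gene were in their recombined form. RNA was prepared embryo by embryo and put on separate arrays. The Cre driver, the cells that lost the gene and the deleted exon were not given in the sources used here.

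The red cell membrane holds its shape through a network of spectrin, which is tied to the lipid bilayer at separate anchor points. At one of them ankyrin links beta-spectrin to band 3, the anion exchanger, together with protein 4.2 and the Rh proteins. At the other, spectrin ends meet short actin filaments with adducin, dematin and the Epb41 protein. Many of the proteins on the outer face, such as Kell and the LW antigen, are blood group antigens. In the embryo the first circulating red cells are large erythroblasts from the yolk sac that make embryonic globins, and they reach the brain through its vessels. Bcl11a is a zinc finger transcription factor of cortical neurons and, in red cell precursors, a repressor of embryonic and fetal globin genes.

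The dissected tissue carried the genes of neocortex at similar levels in both genotypes. The 7 measured marker genes of neocortical cells, among them Tbr1 and Neurod6, averaged 11.58 to 11.68 on the log2 scale in controls and 11.62 to 11.70 in mutants. Of the 7, Eomes had the largest difference, 0.21 ± 0.07 (SE, limma adjusted p = 0.503), and was higher in every mutant, as were 7.69% of all genes. Bcl11a itself (Entrez 14025) fell from 12.25 to 11.41, by 0.84 ± 0.06 on the log2 scale (SE, n = 3 arrays each, limma adjusted p = 0.00201). Whether its probes lie in the deleted exon is unknown here, so the size of this fall does not measure the loss of that exon. Markers of pericytes and meninges stood apart in mutant replicate 1, where 7 genes averaged 8.28, against 7.40 and 7.25 in the other mutants and 7.02 to 7.10 in controls. The 8 macrophage markers averaged 6.86 to 6.94 in controls and 7.04 to 7.46 in mutants, highest in mutant replicate 1. Endothelial markers averaged 8.43 to 8.71 in controls and 8.57 to 8.99 in mutants, also highest in that array. Those of choroid plexus were not highest there, at 5.62. In bulk tissue, fewer cells of a type and less RNA per cell cannot be told apart, and the same holds for more of either.

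The sequences before the transcription start are shown here because Kel, Rhag and Epb42 were higher together in the mutants, whereas the Icam4 and Sptb groups overlapped. RefSeq's table for GRCm38.p6 holds 6 of the 8 promoters, without those of Slc4a1 and Ank1. The 230 bases before the start site read 5′ to 3′ on the strand of the gene, with matches to AGATAA or TGATAA, the letters bound by GATA factors, on either strand in capitals.
Kel (chr6:41704326-41704555, minus strand): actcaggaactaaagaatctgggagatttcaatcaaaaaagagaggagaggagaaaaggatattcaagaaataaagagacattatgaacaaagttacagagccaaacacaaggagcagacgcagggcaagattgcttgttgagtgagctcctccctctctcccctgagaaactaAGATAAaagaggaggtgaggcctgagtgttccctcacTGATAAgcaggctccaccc
Rhag (chr17:40810919-40811148, plus strand): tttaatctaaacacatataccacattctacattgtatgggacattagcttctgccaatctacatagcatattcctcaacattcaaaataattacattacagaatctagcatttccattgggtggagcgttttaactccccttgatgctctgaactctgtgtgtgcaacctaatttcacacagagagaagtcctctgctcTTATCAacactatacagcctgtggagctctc
Epb42 (chr2:121036878-121037107, minus strand): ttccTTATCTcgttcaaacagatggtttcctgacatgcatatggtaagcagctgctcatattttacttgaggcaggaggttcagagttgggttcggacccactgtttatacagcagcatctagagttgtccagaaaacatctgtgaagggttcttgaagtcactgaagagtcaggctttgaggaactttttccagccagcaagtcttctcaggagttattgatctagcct
Icam4 (chr9:21029202-21029431, plus strand): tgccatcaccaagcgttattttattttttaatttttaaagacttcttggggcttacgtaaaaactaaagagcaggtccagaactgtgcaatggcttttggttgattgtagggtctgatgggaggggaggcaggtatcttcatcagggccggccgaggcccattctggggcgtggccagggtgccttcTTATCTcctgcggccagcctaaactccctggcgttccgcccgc
Sptb (chr12:76710548-76710777, minus strand): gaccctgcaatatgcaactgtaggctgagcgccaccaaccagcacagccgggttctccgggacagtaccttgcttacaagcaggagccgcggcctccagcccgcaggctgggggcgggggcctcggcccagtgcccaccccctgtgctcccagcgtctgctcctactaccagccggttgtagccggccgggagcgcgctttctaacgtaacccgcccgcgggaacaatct

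A GATA match lay in 5 of the 6 promoter windows of 300 bases, which run from 250 bases before the start site to 50 after it. Over all 32851 windows in the table, 18.6% held such a match. Kel had 2, which began 56 and 19 bases before the start site. The matches of Rhag, Icam4 and Ermap began 31, 43 and 67 bases before it, and that of Epb42 began 226 bases before it. Sptb held none in its window. Both Icam4 and Ermap thus held a match although their groups overlapped. The letters CACCC, bound by KLF factors, were found on either strand in 5 of the 6 windows, all but that of Epb42, and in 57.5% of all windows. CANNTG, the E-box, was found in 4 of the 6 and in 72.3% of all. TGACCA, letters reported for human BCL11A, were in none of the 6 and in 13.6% of all. A match is a run of letters and not a measured binding site.

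Of the 8 genes, 4 were higher in every mutant than in any control, and the groups of the other 4 overlapped. Slc4a1, Kel, Rhag and Epb42 had log2 differences, mutant minus control, of 0.55 to 1.47. Ermap, Icam4, Sptb and Ank1 differed by -0.02 to 0.32. Groups that did not overlap, with mutants higher, were found for 7.69% of all genes. That share stands here as background and nothing is read from it, since this contrast was known when the genes were listed. The median log2 difference was 0.43 over the 8 genes and 0.02 over all genes.

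**Figure D1:**
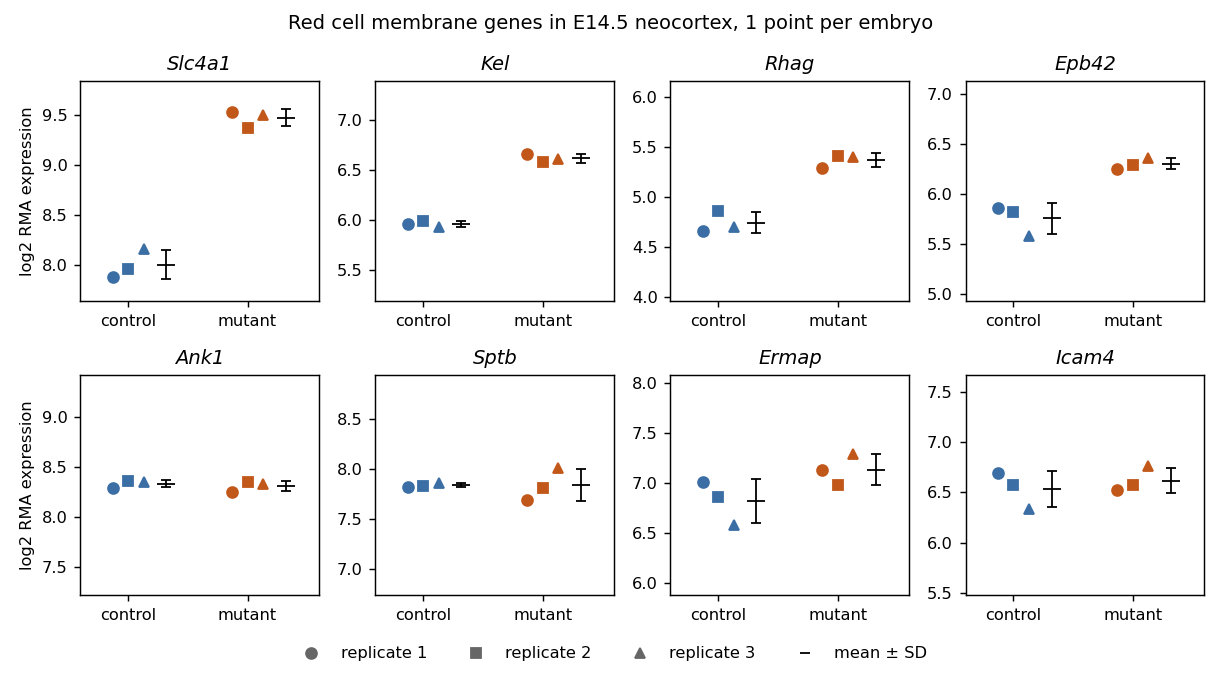
Log2 RMA expression of the 8 red cell membrane genes, 1 point per embryo, with the group mean ± SD beside it. Every axis spans the same log2 range. In the upper row the mutants lie above all controls, by 1.20 for Slc4a1 and 0.39 to 0.59 for the other genes. In the lower row the groups overlap.

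Among the genes of proteins that cross the membrane, that of band 3 showed the widest separation. Slc4a1 (Entrez 20533) encodes band 3, which exchanges chloride for bicarbonate and is the main anchor of the skeleton. It read 7.88, 7.96 and 8.16 in control replicates 1, 2 and 3, and 9.53, 9.37 and 9.50 in the mutants. The lowest mutant lay 1.20 above the highest control, and the values within each genotype spanned 0.29 and 0.16. The controls had an SD of 0.15 and the mutants a mean of 9.47 ± 0.09 (SD, n = 3 arrays each), and the log2 difference was 1.47 ± 0.09 (SE) or 2.76-fold. This difference stood at rank 6 of 19938 genes, counted from the highest.

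Rhag (Entrez 19743) encodes the Rh-associated glycoprotein, a channel for ammonia that Rh proteins need to reach the surface. It read 4.66, 4.86 and 4.70 in controls and 5.29, 5.41 and 5.40 in mutants. All 3 mutants lay above the controls, with a gap of 0.42. The means were 4.74 ± 0.11 and 5.37 ± 0.07 (SD, n = 3 arrays each), and the log2 difference was 0.62 ± 0.07 (SE) or 1.54-fold. Its mean level, like that of Epb42, was among the lowest 4985 genes, where RMA can compress differences, and its part in the fold was not tested. With 1 array left out, the log2 difference lay between 0.58 and 0.68.

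Kel (Entrez 23925) encodes Kell, an endopeptidase on the outer face of the membrane. It had the tightest groups of the 4 genes. The controls read 5.96, 5.99 and 5.93, and the mutants 6.66, 6.58 and 6.61. Each genotype spanned less than 0.1 and the gap between them was 0.59. The means were 5.96 ± 0.03 and 6.62 ± 0.04 (SD, n = 3 arrays each), and the log2 difference was 0.66 ± 0.06 (SE) or 1.57-fold.

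Of the genes for proteins on the inner face, that of protein 4.2 was higher in every mutant, while those of ankyrin and beta-spectrin had overlapping groups. Epb42 (Entrez 13828) encodes protein 4.2, a relative of the transglutaminases without their activity, which binds band 3 and ankyrin. It read 5.86, 5.82 and 5.58 in controls and 6.25, 6.29 and 6.36 in mutants. Control replicate 3 was the lowest of the 6 arrays, and the groups stood 0.39 apart. The means were 5.75 ± 0.15 and 6.30 ± 0.06 (SD, n = 3 arrays each), and the log2 difference was 0.55 ± 0.08 (SE) or 1.46-fold. With 1 array left out, the difference lay between 0.46 and 0.60.

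Ank1 (Entrez 11733) encodes ankyrin 1, which ties spectrin to band 3 and is also made in muscle and neurons. It read 8.29, 8.36 and 8.35 in controls and 8.25, 8.35 and 8.33 in mutants. The groups overlapped, and the means were 8.33 ± 0.04 and 8.31 ± 0.05 (SD, n = 3 arrays each). The log2 difference was -0.02 ± 0.06 (SE), and -0.04 to 0.01 with 1 array left out.

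Sptb (Entrez 20741) encodes beta-spectrin of the red cell, which is likewise found in muscle and brain. The controls read 7.82, 7.83 and 7.86, and the mutants 7.69, 7.81 and 8.01. The controls lay within 0.04 of each other and inside the mutant range, which spanned 0.32. The means were 7.84 ± 0.02 and 7.84 ± 0.16 (SD, n = 3 arrays each), and the log2 difference was 0.00 ± 0.08 (SE). Its sign turned when 1 array was left out, from -0.08 to 0.08.

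The remaining surface proteins showed smaller differences. Ermap (Entrez 27028) encodes the erythroblast membrane-associated protein, which carries the Scianna blood group. It read 7.01, 6.86 and 6.58 in controls and 7.13, 6.98 and 7.29 in mutants. Mutant replicate 2 lay 0.03 below control replicate 1, so the groups overlapped. The means were 6.82 ± 0.22 and 7.14 ± 0.16 (SD, n = 3 arrays each), and the log2 difference was 0.32 ± 0.12 (SE) or 1.25-fold. Without control replicate 3 the difference was 0.20, and without control replicate 1 it was 0.42.

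Icam4 (Entrez 78369) encodes the LW antigen, an adhesion molecule through which erythroblasts bind integrins on macrophages. It read 6.69, 6.57 and 6.34 in controls and 6.52, 6.57 and 6.76 in mutants. Both genotypes covered much the same range, with means of 6.53 ± 0.18 and 6.62 ± 0.13 (SD, n = 3 arrays each). The log2 difference was 0.09 ± 0.10 (SE). It was -0.01 without control replicate 3 and 0.16 without control replicate 1.

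Within a genotype the 8 genes did not follow 1 order of embryos. Control replicate 3 was the lowest control for 4 genes, Kel, Epb42, Ermap and Icam4, and the highest for Slc4a1 and Sptb. Over the 4984 genes with mean levels of 6.03 to 7.92, which include Kel, Sptb, Ermap and Icam4, control replicate 3 had a median deviation of -0.10 from each gene's mean. The same median lay between -0.01 and 0.05 in the other arrays. The part of this shift in the low values of control replicate 3 was not tested. Among the mutants, replicate 3 was the highest for 4 of the 8 genes and the lowest for none. Mutant replicate 1, in which meningeal markers were high, was the lowest mutant for 5 of them and the highest for Slc4a1 and Kel.

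The partners of these proteins at the membrane were read from a list of 37 other red cell membrane genes, of which 33 were measured. By limma none of the 33 was called, that is, had an adjusted p under 0.05, where 0.286% of all genes were called in either direction. At an unadjusted p under 0.05 the count was 4, or 12.1%, against 6.05% of all genes. The list had 18 positive differences and a median of 0.02, the same as over all genes.

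Xk, the transporter-like protein bound to Kell, differed by -0.16 ± 0.14 (SE, limma adjusted p = 1). It read 8.81, 8.66 and 9.04 in controls and 8.86, 8.37 and 8.79 in mutants, so Kel was higher in the mutants while the Xk groups overlapped. Without mutant replicate 2 the Xk difference was -0.01, and without control replicate 3 it was -0.06. Rhd, the Rh antigen that assembles with the Rh-associated glycoprotein, differed by 0.14 ± 0.07 (SE, limma adjusted p = 0.932). Gypc, which encodes glycophorin C of the actin junction, differed by 0.15 ± 0.09 (SE, limma adjusted p = 1). At the same junction, the adducin genes Add1, Add2 and Add3 differed by -0.01, 0.07 and -0.03. Dmtn, the dematin gene, and Mpp1, which binds glycophorin C, differed by -0.10 and 0.08. None of these junction genes was called.

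In 3 genes of the list every mutant was above every control, and in 2 every mutant was below. These are 3 of 33 where 7.69% of all genes did so, and 2 of 33 where 2.85% did. Cd59a, which shields cells from complement, had the largest difference, 0.93 ± 0.29 (SE, limma adjusted p = 0.46). It read 6.09, 5.95 and 5.84 in controls and 7.70, 6.46 and 6.52 in mutants, so 1 embryo carried much of it. Without mutant replicate 1 the difference was 0.53. That array also had the highest meningeal markers, whose part in the value was not tested. Tmcc2, a transmembrane protein, differed by 0.26 ± 0.06 (SE, limma adjusted p = 0.221), and Tspo2, an erythroid cholesterol-binding protein, by 0.21. The genes below were Slc16a1, a lactate transporter, at -0.26 ± 0.08 (SE, limma adjusted p = 0.482), and Cr1l, a complement regulator, at -0.14 ± 0.06 (SE, limma adjusted p = 0.825). Piezo1, a mechanosensitive channel, and the adhesion receptor Cd44 differed by 0.24 and 0.15, with overlapping groups.

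**Figure D2:**
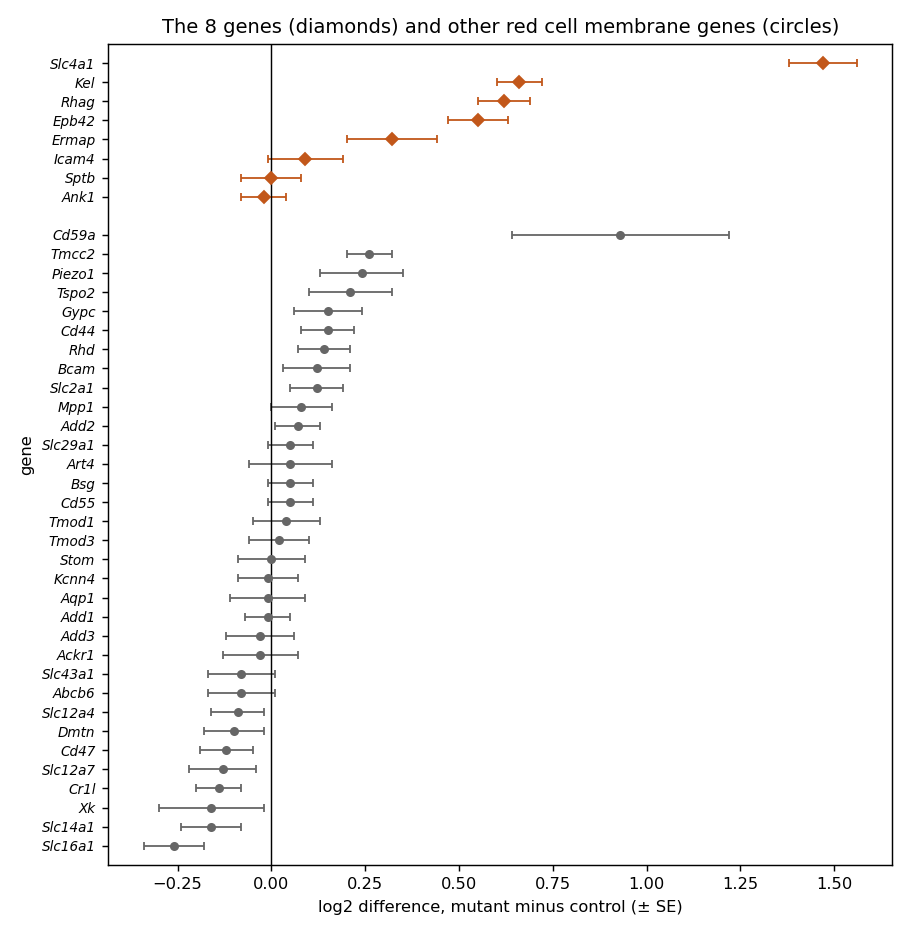
Log2 difference of mutant minus control ± SE (n = 3 arrays each) for the 8 genes, as diamonds, and for 33 other red cell membrane genes, as circles. Slc4a1, Kel, Rhag and Epb42 lie between 0.55 and 1.47. Among the circles Cd59a alone lies above 0.26, with the widest error bar.

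Most of the 8 genes belong to families whose other members serve other cells, and 35 of 37 such relatives were measured. By limma none of the 35 was called, where 0.286% of all genes were called in either direction. At an unadjusted p under 0.05 the count was 2, or 5.71%, against 6.05% of all genes, and the median difference was 0.01. The 8 relatives of Slc4a1, which include Slc4a2, Slc4a3 and the neuronal bicarbonate transporter Slc4a10, differed by -0.18 to 0.14, with Slc4a11 at the low end. The 6 zinc peptidases related to Kel, among them Ece1, differed by -0.34 to 0.04, with Mme at the low end. Rhbg and Rhcg differed by 0.12 to 0.16, below the 0.62 of Rhag, as did Rhd, which is a red cell gene of the membrane list and not 1 of the 35. The relatives of Epb42 ranged from -0.03 to 0.33, and the highest, Tgm2 at 0.31 and F13a1 at 0.33, were high in mutant replicate 1, at 7.44 and 6.79. Without that array both differed by 0.09.

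Ank2 and Ank3, the ankyrins of neurons, differed by -0.23 ± 0.09 and -0.08 ± 0.07 (SE, limma adjusted p = 0.638 and 1). Ank2 was lower in every mutant, at 10.94, 10.72 and 10.93, than in controls, at 11.18, 10.97 and 11.14. Of the 35 relatives, 2 were lower in every mutant, Ank2 and Ecel1, where 2.85% of all genes were. Another 2 were higher in every mutant, Rhbg and Icam1, where 7.69% of all genes were. Sptbn1 and Sptan1, the spectrins of non-erythroid cells, differed by 0.01 ± 0.07 and -0.03 ± 0.06 (SE, limma adjusted p = 1 for each). Ank1 and Sptb thus lay within 0.1 of 0, as did most of their relatives. Slc4a1, Rhag, Kel and Epb42 exceeded every measured relative. So did Ermap, at 0.32 over relatives at -0.00 to 0.10, and Ank1, at -0.02 over Ank2 and Ank3. The difference between a gene and its relatives was not tested.

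**Figure D3:**
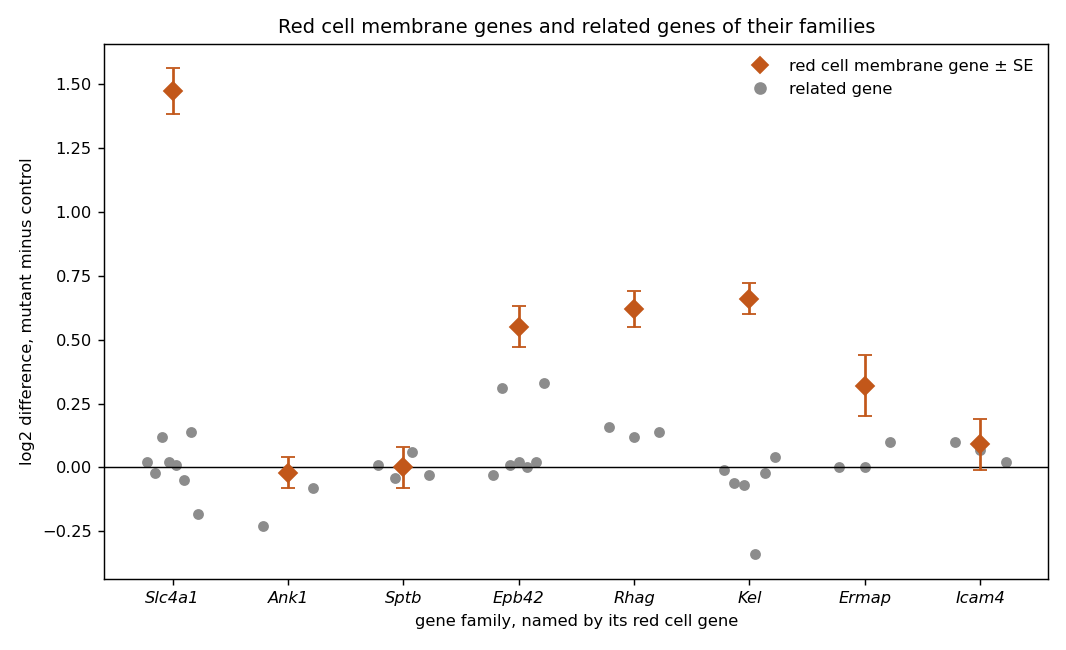
Log2 difference of mutant minus control (n = 3 arrays each) for each of the 8 genes ± SE, as a diamond, and for related genes of its family, as grey points. Slc4a1 lies at 1.47 over relatives at -0.18 to 0.14. Ank1, Sptb and Icam4 lie among or beside their relatives.

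The genes next to each of the 8, in the order of start positions along the chromosome, gave no calls. Over all genes 0.286% were called in either direction, so nothing is read from the absence of calls among 16 neighbours. Of these 16 neighbours, Ubtf and Rundc3a flank Slc4a1 and differed by 0.03 and 0.10. Llcfc1 and Olfr459 beside Kel differed by 0.04 and -0.06, and Crisp2 and 9130008F23Rik beside Rhag by 0.10 and 0.02. Ccndbp1 and Tgm5, at 0.05 and 0.02, flank Epb42. Before and after Ank1 in that order, Kat6a and Mir3107 differed by -0.01 and -0.05, and around Ermap, Zfp691 and Svbp by 0.09 and 0.02. A gene that lies within another would also count as its neighbour in this order. The largest value belonged to Churc1 beside Sptb, at -0.25 ± 0.11 (SE, limma adjusted p = 0.879), with Plekhg3 on the other side at 0.13. Icam4 lies between its relatives Icam1 and Icam5, an adhesion gene of forebrain neurons, which differed by 0.10 and 0.02. Slc4a1 is on the same chromosome as Bcl11a, with 1107 tested genes between them.

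Beyond the membrane, erythroid genes were also uneven, with some far higher in the mutants and others not. Of 36 listed, 30 were measured, 2 rose by limma, where 0.246% of all genes rose, and none fell. Without control replicate 3 the number that rose or fell was 5. At an unadjusted p under 0.05 the count was 11, or 36.7%, all higher in the mutants, against 6.05% of all genes in either direction. This list was drawn up with earlier results of these data known. The median difference was 0.14. Groups that did not overlap were found in 12, all higher in the mutants, where 7.69% of all genes did so. Hbb-bh1, a beta-like globin of the early embryo, rose by 5.02 ± 0.20 (SE, limma adjusted p = 5.92e-05). The zeta globin gene Hba-x rose by 1.38 ± 0.10 (SE, limma adjusted p = 0.00164). The genes next in p were not called. Trim10, which red cell precursors need to mature, differed by 0.65 ± 0.10 (limma adjusted p = 0.0585), the embryonic globin Hbb-y by 0.59 ± 0.10 (0.0729), the carbonic anhydrase Car2 by 1.24 ± 0.22 (0.0773) and the heme enzyme Alas2 by 0.71 ± 0.13 (0.0795), each with its SE. Lmo2, an erythroid cofactor that vessels also make, and Cpox, a heme enzyme, differed by 0.28 and 0.24.

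Of the other erythroid genes, none of those named next was called. Gata1 and Klf1, the master transcription factors, differed by 0.01 ± 0.06 and 0.11 ± 0.07 (SE, limma adjusted p = 1 for each). Gata1 read 6.32, 6.23 and 6.18 in controls and 6.27, 6.19 and 6.29 in mutants. Among the other regulators, Tal1 differed by 0.20 ± 0.07 (SE, limma adjusted p = 0.626) and Gfi1b by 0.11 ± 0.07 (SE, limma adjusted p = 1), both higher in every mutant, with a Gfi1b gap that rounds to 0.00. Nfe2 differed by 0.17 ± 0.09 (SE, limma adjusted p = 0.93), with overlapping groups. The survival gene Bcl2l1 and the biliverdin reductase gene Blvrb, at 0.17 and 0.26, were higher in every mutant. Tfrc, the transferrin receptor, differed by -0.17 ± 0.09 (SE, limma adjusted p = 0.954). The adult globins have probe sets shared by several genes, which lay between 12.43 and 12.88 in every array. Both probe sets of the alpha genes were higher in every mutant than in any control, by 0.26 and 0.25 in the mean. Both probe sets of the beta genes differed by 0.08 and 0.05, with overlapping groups. Over the 7 measured erythroid markers the mean level was 7.90 to 8.12 in controls and 9.09 to 9.21 in mutants, and all 7 differences were positive, with a median of 0.59. Hbb-bh1 carried most of that gap. Without it, the other 6 averaged 8.26 to 8.38 in controls and 8.77 to 8.84 in mutants, and the difference of the means was 0.48 in place of 1.13. These 6 were uneven as well. Hba-x, Alas2 and Hbb-y differed by 1.38, 0.71 and 0.59, while Gata1, Klf1 and Epor differed by 0.01, 0.11 and 0.07. The part of red cell number in the values of Slc4a1, Kel, Rhag and Epb42 was not tested. Markers of megakaryocytes and platelets, which share regulators such as GATA1 with red cells, averaged 6.14 to 6.36 in controls and 6.24 to 6.43 in mutants.

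**Figure D4:**
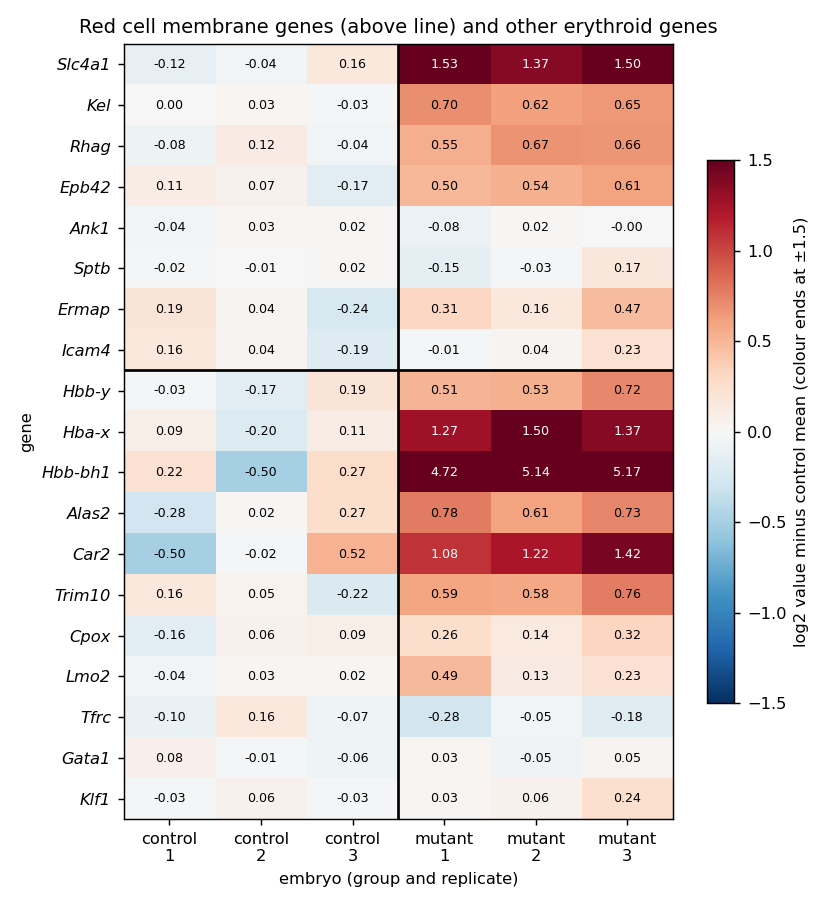
Log2 value minus the control mean for each embryo (columns) and gene (rows), with the 8 red cell membrane genes above the line and other erythroid genes below it. Slc4a1, Hba-x and Hbb-bh1 are above 1.2 in all 3 mutants, whereas Gata1 stays near 0.

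The profile of Slc4a1 over the 6 arrays was compared with that of each other gene, both centred on their own mean, by the root mean square difference. The 6 nearest genes were Tent5c, which encodes a poly(A) polymerase, at 0.13, Sema3c at 0.14, Hba-x at 0.17, Gamt at 0.19, Hmox1 at 0.20 and Zcchc24 at 0.21. Sema3c, a secreted guidance cue of neurons, read 8.85, 9.13 and 9.21 in controls and 10.22, 10.34 and 10.43 in mutants. Hmox1, the enzyme that opens the heme ring, read 7.25, 7.65 and 7.40 in controls and 8.69, 8.60 and 8.57 in mutants. Kel, Rhag and Epb42 stood at 0.42, 0.44 and 0.49, at ranks 37, 42 and 79 of 19937 genes, since the measure also weighs the size of a difference.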

How the data were processed

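RNA from the neocortex of 3 control and 3 mutant embryos at embryonic day 14.5 was measured on Affymetrix Mouse Gene 1.0 ST arrays, 1 per embryo. The authors used Expression Console and RMA, per the submitters' processing notes, so the deposited values were taken as log2 expression. They lay between 3.41 and 13.75, with array medians of 7.23 to 7.33. RMA can compress differences near background and its quantile step hides a shift of most genes. No detection call was used here, and the number of arrays, not read depth, limits the precision. Versions were not given in the sources used here.

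GEO's platform annotation gave the genes of the probe sets, with 21789 holding 1 symbol, 1621 several and 12146 none of 35556. Of the single-symbol probe sets, 21698 matched RefSeq's GRCm38.p6 table by Entrez number. The probe set with the highest mean was kept for each of 19938 genes. The genotypes were compared by limma 3.58.1 in R 4.3.3 (lmFit, eBayes, no covariate), with two-sided p-values adjusted by the Benjamini-Hochberg method over all genes and a threshold of 0.05. SEs are limma's moderated ones. The RefSeq table gave gene order, and another gave promoter sequences.

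The 8 genes and all lists were chosen with earlier results of these data known. From each of 3 further lists the called genes and the 6 with the smallest p were named, with 20 genes always named where measured, the nearest neighbours and the 6 profiles nearest to Slc4a1. Add1, Add2, Add3, Dmtn, Mpp1, Tspo2, Rhcg, Ece1, Tal1, Gfi1b, Nfe2, Bcl2l1, Blvrb and the adult globins were named after their values were seen. So were Ecel1, Epor and Eomes. Of 8 marker lists, those of macrophages, other leukocytes, endothelium and choroid plexus had median differences of 0.33, 0.09, 0.16 and 0.04, with no gene called. Alternatives were a second quantile normalization, median centring, array weights, leaving out dim genes, averaging probe sets, the replicate number as a block, a threshold of 0.1 and leaving out each array.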

Additional observations from a re-analysis of the deposited data

How the results depend on the processing

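None of the 8 genes moved by more than its spread between replicates under any alternative that gave a value, and their median of 0.43 lay between 0.33 and 0.50. Leaving out dim genes, those under a log2 level of 7.92, removed 6 of the 8, so no median could be had there. The number of genes called, 57, was 20 to 50 with 1 array left out, 217 with array weights, 34 with the replicate block and 107 at an adjusted p under 0.1. For the other erythroid genes the count of 2 was 2 to 5 with 1 array left out, 6 with array weights, 4 with the replicate block and 6 at an adjusted p under 0.1. The lists of other membrane genes and of relatives gave 0 calls by limma in each alternative, with 4 and 2 at an unadjusted p under 0.05 in the reported fit. Deviations of arrays with the same number correlated at 0.03, -0.14 and 0.08, so the numbers were not taken as pairs. Array weights turned the sign of uncalled genes, to -0.02 for 9130008F23Rik and Sptbn1, -0.01 for Ccndbp1 and Gata1, -0.03 for Svbp and -0.12 for Tgm5. With 1 array left out, the ranges were -0.06 to 0.10 for 9130008F23Rik and Tgm5, -0.05 to 0.13 for Ccndbp1, -0.02 to 0.05 for Gata1, -0.04 to 0.08 for Icam5 and -0.08 to 0.06 for Kat6a. They were -0.03 to 0.09 for Llcfc1, -0.18 to 0.02 for Mir3107, -0.05 to 0.06 for Slc4a2, -0.04 to 0.07 for Sptbn1, -0.03 to 0.06 for Svbp and -0.00 to 0.07 for Ubtf. The cause was not tested. Leaving Hbb-bh1 out of the erythroid markers, chosen after seeing the data, moved their mean difference from 1.13 to 0.48. All other alternatives were recorded as planned.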
